A study of Mus musculus with 8 samples.

Results

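NF-κB subunits and feedback inhibitors were followed across the cell types captured from the mouse brain, 24 h after a peripheral injection of lipopolysaccharide (LPS). The group holds 10 genes given by symbol, a choice made with earlier results of these data known, out of 32227 genes in the count tables. *Nfkb1*, *Nfkb2*, *Rel* and *Relb* encode subunits of the transcription factor. *Nfkbia*, *Nfkbie*, *Nfkbiz* and *Bcl3* encode IκB proteins, and *Tnfaip3* and *Tnip1* encode feedback inhibitors that act on ubiquitin chains.

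The samples were 8 male C57Bl/6J mice, aged 5 to 6 months by the labels, with 1 library per mouse. The study's methods give a younger age range, and the labels are followed here. Mice were injected once into the peritoneum, with saline in 4 of them and with LPS (15000000 EU/kg) in the other 4, and the brain was taken without perfusion, so cells of the blood could be captured with those of the tissue. Brains were dissociated with DMSO, the solvent, or with a mixture of the transcription inhibitors actinomycin D and triptolide and the translation inhibitor anisomycin, called "inhibitors" here. CD45+ cells, that is cells with the surface protein shared by leukocytes, were then pulled out on magnetic beads and profiled by PIPseq, a single-cell RNA sequencing method in which cells are captured in droplets around templates. Saline and LPS mice were each split between DMSO and inhibitors, which gives 4 combinations of 2 libraries, and the labels give replicates 1 and 2 as capture batches. The design therefore asks 2 questions of each gene, namely how it differed between LPS and saline mice (the *in vivo* effect) and how it differed between dissociation with DMSO and with inhibitors (the *ex vivo* effect). In the second comparison, a rise during dissociation with DMSO and a loss of RNA while transcription was blocked cannot be told apart.

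NF-κB dimers rest in the cytoplasm, bound by IκB proteins. Signals from Toll-like receptors such as the LPS receptor activate a kinase that marks IκB for degradation, so that the dimers reach the nucleus. Many genes of the inhibitors are themselves targets of NF-κB, which gives the pathway its negative feedback, and some of them are induced within minutes of a stimulus or of handling.

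A total of 119053 barcodes passed the limits, namely at least 800 and fewer than 45000 UMIs (unique molecules), at least 250 and fewer than 6500 genes, and under 5% mitochondrial counts, with 12039 to 17364 cells per library. Median UMIs per cell were 2207 to 3161 in saline libraries and 4149 to 4763 in LPS libraries. Only 125 of 118918 distinct cell barcodes (0.105%) occurred in more than 1 library. Cells were assigned to types by marker genes, and UMIs were summed per library and type. Microglia made up 74.0 to 85.1% of the cells of a library. The microglial marker genes summed to 43200 to 45219 CPM (UMI counts scaled to the same total in every sum) in the microglia of saline libraries and to 7563 to 8826 in those of LPS libraries, and cells with too few markers of any type were 1.84 to 2.81% of saline and 6.24 to 7.66% of LPS libraries. Free RNA, taken from barcodes with 1 to 99 UMIs, held 15.5 to 33.7% of all UMIs of a library. In it *Nfkbia* stood at 116 to 436 CPM in saline and 918 to 1747 CPM in LPS libraries, so the free RNA carried the same direction as the cells.

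Promoters are shown where they held letters that match the consensus read by NF-κB dimers. In the 250 bases before a transcription start, 6 of the 7 members found in the RefSeq table of GRCm38.p6 held at least 1 match to the κB consensus on either strand, and *Bcl3* held none. *Nfkb1*, *Relb* and *Nfkbiz* were not in that table. A match was held by 4.46% of all 27025 genes listed there, and by 3.90% of all 32851 windows. The stretches below are written 5′ to 3′ along the strand of the gene, with the letters of the match, or of overlapping matches, in capitals. A match is a description of the letters and not a measured binding site.
*Nfkbia* (chr12:55492658-55492685, minus strand, match from 29 bases before the start): gactggcttGGAAATTCCCcgcgcctga
*Nfkbie* (chr17:45555585-45555612, plus strand, from 106 bases before): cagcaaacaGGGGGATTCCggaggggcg
*Tnfaip3*, farther match (chr10:19015517-19015544, minus strand, from 125 bases before): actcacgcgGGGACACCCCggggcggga
*Tnfaip3*, nearer match (chr10:19015411-19015431, minus strand, from 12 bases before): atttccatcGGAAATCCCCct
*Tnip1* (chr11:54962978-54963007, minus strand, 3 overlapping matches from 58 bases before): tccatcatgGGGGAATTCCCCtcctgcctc
*Rel* (chr11:23771042-23771070, minus strand, 2 overlapping matches from 92 bases before): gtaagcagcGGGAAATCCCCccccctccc
*Nfkb2*, first listed start, farther match (chr19:46304689-46304717, plus strand, 2 overlapping matches from 39 bases before): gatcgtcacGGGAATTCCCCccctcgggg
*Nfkb2*, first listed start, nearer match (chr19:46304717-46304736, plus strand, from 11 bases before): gggccgaaaGGGGCTTTCCc
The *Nfkb2* stretches overlap annotated exons of *Nfkb2* and of the transcript AC114539.1, and the others overlap no annotated exon. At 2 further starts of *Nfkb2* the window held 1 match each, which is not shown, and a further start of *Tnfaip3* held none.

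In microglia, the resident phagocytes of the brain, LPS raised 7 of the 10 members and lowered 1. Of the inhibitor genes, *Bcl3*, *Nfkbiz*, *Nfkbia* and *Tnfaip3* rose by more than 3 on the log2 scale, *Tnip1* rose by 1.75 and *Nfkbie* fell. Of the subunit genes, *Nfkb2* and *Relb* rose by 2.29 and 1.31, and *Nfkb1* and *Rel* did not pass the test. Of all 22438 genes tested in microglia, 28.9% were called higher and 28.9% lower with LPS, at an adjusted p under 0.05 in the quasi-likelihood test of edgeR with the *ex vivo* treatment as a term. Shares of all genes below are by edgeR at that threshold, and none is given for unadjusted p or for DESeq2. Differences below are log2 fold changes of LPS over saline ± SE from that fit, and levels are normalized CPM, that is CPM on library sizes scaled by the trimmed mean of M-values (TMM). The 4 libraries of each side are given as DMSO 1 and 2, then inhibitors 1 and 2.

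*Nfkb2* encodes the precursor of the subunit used in the noncanonical branch of the pathway. Its normalized CPM was 8.59, 11.3, 9.74 and 13.9 in saline microglia, and 56.4, 33.7, 48.8 and 74.4 in LPS microglia. All LPS libraries lay above all saline libraries, and the difference was 2.29 ± 0.20 (adjusted p = 3.01e-07). *Relb* encodes the partner of that subunit, and its normalized CPM was 12.6, 18.3, 15.9 and 19.2 in saline libraries against 42.6, 30.8, 42.3 and 47.6 in LPS libraries. These groups did not overlap either, with a difference of 1.31 ± 0.15 (adjusted p = 3.64e-06). *Nfkb1*, which encodes the precursor of the most common DNA-binding partner in the canonical branch, was at 112, 124, 109.7 and 127 in saline and at 149, 102, 156 and 151 in LPS libraries. The second LPS DMSO library lay below every saline library and the other LPS libraries above them, and the difference of 0.24 ± 0.15 did not pass (adjusted p = 0.182). Without that library the difference was 0.32 and passed (adjusted p = 0.0237), which made 8 members higher. *Rel* (c-Rel) was at 37.3, 32.3, 35.5 and 32.5 in saline and at 43.6, 24.0, 33.4 and 30.0 in LPS libraries. LPS DMSO 1 lay above all saline libraries, LPS DMSO 2 and LPS inhibitors 2 below them, and LPS inhibitors 1 among them (-0.07 ± 0.16, adjusted p = 0.718).

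*Nfkbia* encodes IκBα, the inhibitor that is degraded and made anew in each round of signaling. Its normalized CPM was 284, 165, 103 and 115 in saline microglia and 2797, 2365, 1525 and 1909 in LPS microglia. The lowest LPS library was far above the highest saline library, and the difference was 3.75 ± 0.23 (adjusted p = 1.60e-08), from 30861 UMIs in saline and 408892 UMIs in LPS microglia. *Nfkbiz* encodes IκBζ, a nuclear IκB protein that is needed for a late set of target genes. It rose from 42.8, 29.5, 10.04 and 11.8 in saline to 464, 279, 231 and 246 in LPS microglia (3.90 ± 0.26, adjusted p = 2.92e-08). In both groups the DMSO libraries held the higher values. *Bcl3*, another nuclear IκB protein, rose from 1.43, 2.18, 1.72 and 2.52 to 29.9, 22.6, 32.2 and 30.8 (3.92 ± 0.17, adjusted p = 7.12e-10). Its saline values rested on 335 UMIs in all, against 5621 in LPS microglia.

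*Tnfaip3* encodes the ubiquitin-editing enzyme that shuts down signaling from Toll-like and TNF receptors. Its normalized CPM was 43.5, 34.4, 24.9 and 29.9 in saline and 641, 246, 277 and 281 in LPS microglia. The first LPS DMSO library stood above the other LPS libraries, and the difference was 3.43 ± 0.25 (adjusted p = 7.80e-08). *Tnip1*, whose product binds ubiquitin together with it, went from 16.4, 18.4, 17.0 and 19.4 to 57.5, 49.1, 61.9 and 72.4 (1.75 ± 0.12, adjusted p = 4.37e-08). *Nfkbie* encodes IκBε, a cytoplasmic inhibitor like IκBα, and was the member that fell. It went from 15.8, 21.1, 17.6 and 21.8 to 12.5, 11.3, 11.6 and 12.7, without overlap (-0.66 ± 0.12, adjusted p = 0.000386). In all, the lowest LPS library exceeded the highest saline library for 7 members, against 27.3% of all genes tested, and since the pooled groups did not overlap the same held within each capture batch.

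**Figure D1:**
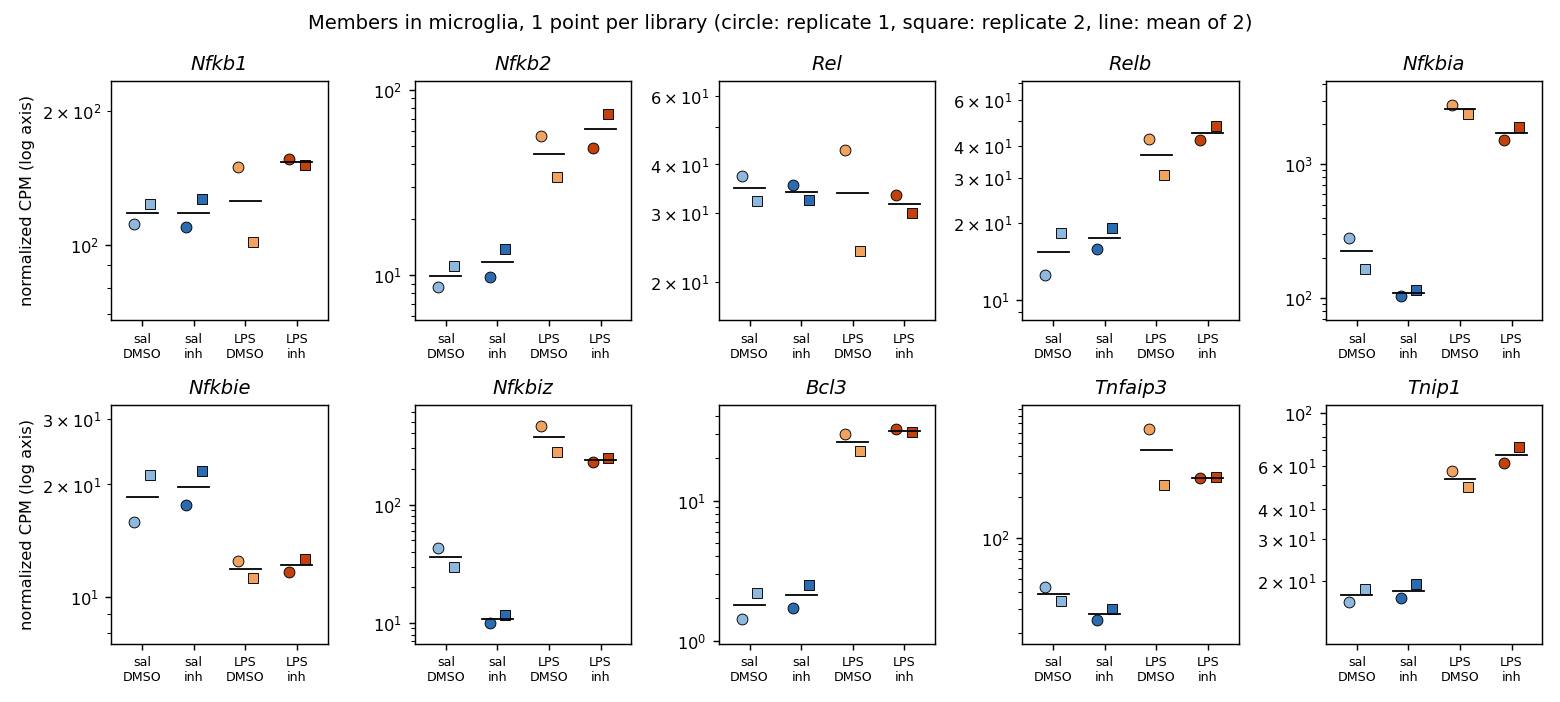
Levels of the 10 members in microglia, 1 point per library, in normalized CPM on a log axis, for the 4 combinations of saline or LPS with DMSO or inhibitors. The LPS libraries sit above the saline libraries for 7 members and below them for *Nfkbie*, with *Nfkbia* between 103 and 284 in saline and between 1525 and 2797 in LPS libraries.

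The size of these differences depended on how the libraries were scaled. In LPS microglia the 50 genes whose share rose most, led by *Saa3* and *Fth1*, took 20.9 to 22.1% of UMIs, against 5.64 to 6.83% in saline microglia. With scaling by total counts in place of TMM, an alternative added after the data had been seen, the median log2 difference of all genes tested in microglia moved from -0.15 to -0.997, and the calls from 6485 higher and 6478 lower to 2871 higher and 15068 lower. The 7 members called higher in microglia stayed higher, from 0.49 for *Relb* and 0.92 for *Tnip1* to 2.89 for *Nfkbia* and 3.09 for *Bcl3*. In CPM without TMM the groups of *Relb* barely separated, with 23.215 as the highest saline and 23.217 as the lowest LPS value. *Nfkb1* turned from 0.24 to -0.59 (adjusted p = 0.00149), *Rel* from -0.07 to -0.92 (adjusted p = 0.000615), and *Nfkbie* from -0.66 to -1.49, so that 3 members were called lower in microglia. Elsewhere the sign turned for *Nfkb1*, *Nfkbie* and *Nfkbiz* in macrophages, *Nfkb1* in T-cells and *Rel* in neutrophils, none of which was called under TMM. Against the median of all genes, *Nfkb1* stood higher in microglia under both scalings.

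**Figure D2:**
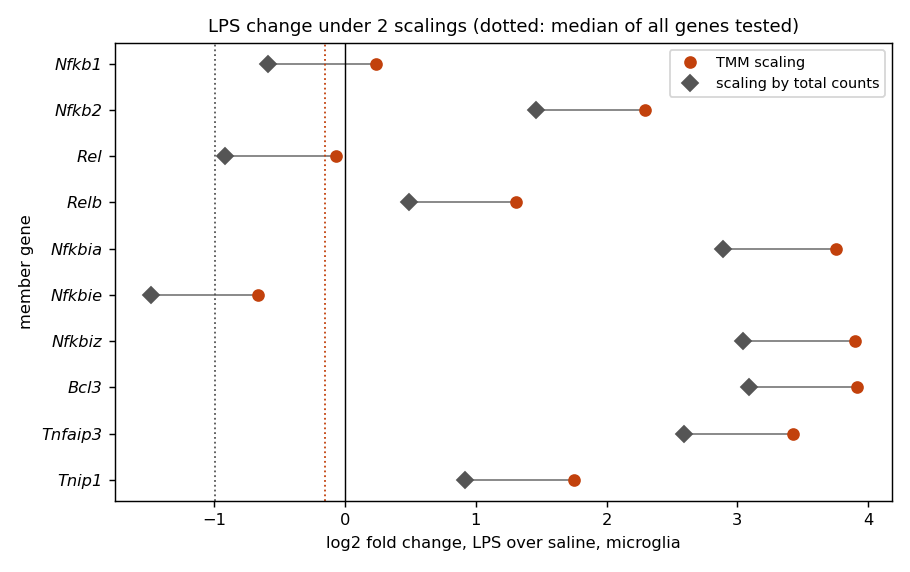
The log2 difference between LPS and saline microglia for each member under TMM scaling and under scaling by total counts, with the median of all genes tested under each. Every member moves down with total counts, *Nfkb1* from 0.24 to -0.59, and the median of all genes moves from -0.15 to -0.997.

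The rest of the pathway in microglia is given by lists of receptors and adaptors, kinases and ubiquitin factors, other subunits and inhibitors, and target genes, with no gene of the 10 among them. The counts stand against 28.9% of all genes called higher and 28.9% lower in microglia. Of 18 receptors and adaptors 11 were called higher and 3 lower with LPS (median difference 0.53). *Tlr2* (3.30), *Cd14* (2.46), a co-receptor for LPS, and *Il1r1* (1.32) led the rise, while *Tlr4*, the LPS receptor itself, fell by 1.43, and *Ticam2* and *Traf3* fell by 0.52 and by 0.29. Of 14 kinases and ubiquitin factors 8 were higher and 2 lower (median 0.45). *Ikbke* (6.70), *Map3k8* (3.74) and *Ikbkb* (1.22), which encodes the catalytic kinase of IκB, led the rise. *Map3k14*, the kinase at the head of the noncanonical branch, dropped by 1.23 and *Tab2* by 0.40.

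Of 14 other subunits and inhibitors 9 were higher and 1 was lower (median 0.50), with *Irak3* (4.57), *Zc3h12a* (3.39) and *Socs1* (1.92), all brakes on inflammatory signaling, ahead, and *Tnfaip8l2* lower by a log2 difference of -0.62. *Rela*, the canonical transactivating subunit, differed by 0.04 (adjusted p = 0.763). Of 28 target genes 25 were higher and 1 was lower (median 3.91). *Clec4e* (7.84), *Ccl5* (7.70) and *Cxcl2* (7.06) led, and *Cd83* fell by 2.24. Beside these, the 4 subunit genes among the members had a median of 0.77 and the 6 inhibitor genes one of 3.59, and all genes tested one of -0.15.

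Macrophages, that is cells with markers of border-associated macrophages such as *Mrc1* and *Pf4*, showed 6 of 10 members higher with LPS and none lower by edgeR, against 24.1% of all genes called higher and 24.5% lower. At an unadjusted p under 0.05 by edgeR there were 7 in either direction, with no share of all genes beside them. *Tnfaip3* rose from 60.7, 28.3, 14.5 and 12.1 to 658, 259.5, 236 and 319 normalized CPM (3.76 ± 0.31, adjusted p = 4.82e-08). *Nfkbia* rose from 515, 224, 146 and 162 to 1932, 1748, 1210.2 and 1305 (2.66 ± 0.23, adjusted p = 7.39e-08). In both groups its DMSO libraries lay above its inhibitor libraries. *Nfkb2* (1.40 ± 0.23), *Relb* (0.98 ± 0.18), *Bcl3* (2.01 ± 0.29) and *Tnip1* (1.85 ± 0.15) rose too, each without overlap between the groups. *Nfkbiz* behaved otherwise. It was at 392, 239.7, 43.9 and 37.7 in saline macrophages and at 287, 163, 90.9 and 92.7 in LPS macrophages, so that its libraries were ordered by the *ex vivo* treatment and the LPS difference was 0.25 ± 0.28 (adjusted p = 0.497). For *Nfkbiz* in macrophages it was 1.35 (adjusted p = 3.41e-06) without cells high in immediate-early genes, the first transcripts to appear after handling, and 0.58 (adjusted p = 0.0499) without saline DMSO 1. Removing the cells high in these genes took 51.25 to 73.4% of the macrophages of DMSO libraries and 3.56 to 9.57% of those of inhibitor libraries. *Nfkb1* (0.21 ± 0.17) and *Nfkbie* (0.03 ± 0.27) did not pass. *Rel* in macrophages was at -0.46 ± 0.21 (adjusted p = 0.0846), and passed at -0.68 (adjusted p = 0.0265) without LPS DMSO 1, and at -0.59 without the cells with most UMIs, -0.72 with a stricter gate and -0.83 with total-count scaling.

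In monocytes, cells of the blood lineage that numbered 95 to 1161 per library, 5 of 10 members were higher with LPS and 1 was lower, against 13.2% and 12.3% of all genes. *Nfkbia* went from 193, 136, 129.6 and 172 to 839, 904, 768 and 802 normalized CPM (2.40 ± 0.21, adjusted p = 2.97e-06). *Tnfaip3* went from 35.3, 29.9, 27.1 and 27.3 to 190.3, 108, 147 and 128 (2.28 ± 0.23, adjusted p = 9.34e-06), and *Tnip1* from 29.0, 44.9, 51.2 and 61.0 to 141, 134, 157 and 145 (1.63 ± 0.20, adjusted p = 4.88e-05). The groups of these 3 genes were far apart. *Bcl3* rose by 1.12 ± 0.29 (adjusted p = 0.0107), with saline values of 16.6 and 23.8 in DMSO libraries and 65.3 and 46.5 in inhibitor libraries below LPS values of 69.6 to 87.6. The call for *Bcl3* in monocytes was lost with cells thinned to 800 UMIs (0.67, adjusted p = 0.0768) and without cells high in immediate-early genes (1.09, adjusted p = 0.0671). *Relb* rose by 0.82 ± 0.26 (adjusted p = 0.0292), a call lost without any 1 of 5 libraries (saline DMSO 1, saline DMSO 2, saline inhibitors 2, LPS DMSO 2 or LPS inhibitors 1) and under 6 other alternatives (0.47 to 0.97). *Rel* fell from 43.6, 33.5, 55.3 and 40.1 to 30.2, 23.8, 31.5 and 25.5 (-0.62 ± 0.21, adjusted p = 0.0406), a call lost without any single library other than LPS DMSO 1 or saline DMSO 2, with no filter on low counts (-0.46), with a stricter gate (-0.44) and without cells high in immediate-early genes (-0.39). *Nfkb1* in monocytes was at -0.38 ± 0.17 (adjusted p = 0.123), with every LPS library below the saline libraries, and it passed at -0.86 (adjusted p = 0.00172) without the cells with most UMIs and at -1.06 (adjusted p = 0.000698) with thinned cells. *Nfkbie* (0.30 ± 0.39) did not pass. *Nfkbiz* in monocytes (0.30 ± 0.29, adjusted p = 0.486) passed at 1.20 (adjusted p = 0.0332) without cells high in immediate-early genes. *Nfkb2* in monocytes was at 0.61 ± 0.32 (adjusted p = 0.177), and passed at 1.15 (adjusted p = 0.0137) without saline inhibitors 1 and at 0.78 with no filter. The microglial markers summed to 1611 to 3275 CPM in saline monocytes and to 574 to 750 CPM in LPS monocytes, and their part in these values was not tested.

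In neutrophils 6 of the 9 members tested were higher with LPS and none was lower by edgeR, against 11.2% of all genes called higher and 9.67% lower. At an unadjusted p under 0.05 by edgeR there were 8 in either direction, with no share of all genes beside them. *Tnip1* rose from 19.5, 12.6, 26.1 and 35.7 to 269, 128, 321 and 291 normalized CPM (3.48 ± 0.33, adjusted p = 2.00e-06), more than any other member there. *Tnfaip3* (2.70 ± 0.38), *Nfkbia* (2.60 ± 0.27) and *Nfkbiz* (2.30 ± 0.27) followed, with *Nfkbiz* at 111, 116, 58.7 and 75.4 in saline and at 724, 465, 373 and 250.1 in LPS neutrophils. *Bcl3* rose by 1.46 ± 0.32 (adjusted p = 0.00338), although its highest saline value (91.3, inhibitors 1) exceeded its lowest LPS value (89.6). *Nfkb1* rose by 0.81 ± 0.25 (adjusted p = 0.0280), a call lost without saline DMSO 1, LPS DMSO 2 or LPS inhibitors 2, by DESeq2 (0.78), with total-count scaling (0.56) and without cells high in immediate-early genes (0.61). *Nfkb2* (1.04 ± 0.41), *Rel* (0.01 ± 0.38) and *Relb* (0.98 ± 0.44) overlapped between the groups and did not pass, other than *Nfkb2* with a stricter gate (1.46, adjusted p = 0.0434).

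In dendritic cells, the cells that carry antigen to T-cells, 6 of the 8 members tested were higher with LPS, against 17.5% of all genes. All 4 subunit genes were among them, of which *Nfkb2*, with 4 to 16 UMIs per saline library, passed the filter on low counts through its LPS libraries. *Nfkb1* rose from 274, 232, 336 and 327 to 729.9, 649.8, 594 and 812 normalized CPM (1.25 ± 0.27, adjusted p = 0.00128). *Rel*, which did not pass in microglia, rose from 141, 116, 88.3 and 98.0 to 454, 234, 291 and 259.8 (1.49 ± 0.32, adjusted p = 0.00129). Saline libraries held 7 to 17 UMIs of *Rel* and 3 to 16 of *Relb*. *Nfkb2* (1.74 ± 0.36) and *Relb* (1.69 ± 0.41) rose without overlap as well, and without cells high in immediate-early genes the call for *Relb* in dendritic cells was lost (1.04, adjusted p = 0.101). *Tnfaip3* rose by 2.06 ± 0.40 (adjusted p = 0.000603), and *Nfkbia* by 1.47 ± 0.34 (adjusted p = 0.00246) with groups that overlapped, because saline DMSO 1 held 1779 normalized CPM, above the 1138 of LPS inhibitors 1. *Nfkbiz* (-0.61 ± 0.57) did not pass, and *Tnip1* in dendritic cells was at 1.24 ± 0.63 (adjusted p = 0.133), passing at 1.87 (adjusted p = 0.0246) without saline DMSO 2. The dendritic cells were few, 22 to 57 per library, and differed in kind: *Ccr7*, a marker of migrating dendritic cells, was at 82.5 to 531 CPM in saline and 3163 to 5107 CPM in LPS libraries, while *Cd209a*, a marker of monocyte-like conventional dendritic cells, was at 727 to 1708 against 0 to 39.5 CPM. A change within cells and an exchange of one kind of dendritic cell for another cannot be told apart here.

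Among lymphocytes, B-cells showed 1 of 10 members higher, *Nfkbia*, against 4.12% of all genes. It went from 407, 236, 299 and 323 to 636, 598, 1003 and 762 normalized CPM (1.22 ± 0.27, adjusted p = 0.00203), and the call was lost without saline inhibitors 1 or saline inhibitors 2, and with no filter on low counts (1.02, adjusted p = 0.0989). The other 9 members in B-cells had differences of -0.69 (*Nfkb1*) to 1.12 (*Bcl3*). These rested on few cells, 17 to 62 B-cells per LPS library against 109 to 407 per saline library. Each LPS library held 0 to 22 UMIs of each of these members. *Tnfaip3* in B-cells was at 1.02 ± 0.53 (adjusted p = 0.289), and passed at 1.47 without saline DMSO 1 and at 1.45 without LPS DMSO 2. T-cells showed 5 of 8 members higher, against 8.19% of all genes. Of these, *Bcl3*, *Nfkb2* and *Relb* passed the filter on low counts through their LPS libraries. *Nfkbia* lay between 225 and 257 in saline and between 896 and 935 in LPS T-cells (1.94 ± 0.17, adjusted p = 1.94e-08). *Bcl3* rose by 2.10 ± 0.41, *Nfkb2* by 1.48 ± 0.38, *Relb* by 1.36 ± 0.47 and *Tnfaip3* by 1.04 ± 0.29. The call for *Tnfaip3* was lost without LPS DMSO 1, saline inhibitors 1 or saline inhibitors 2, and that for *Relb* without any single library other than saline DMSO 1 or LPS DMSO 2. Other alternatives also ended the calls in T-cells for *Relb* (6 of them, 1.17 to 1.36), *Tnfaip3* (0.77 with thinned cells, 0.92 with total-count scaling and 0.94 with free RNA subtracted) and *Nfkb2* (1.35 without the cells with most UMIs and 1.15 without cells high in immediate-early genes). *Nfkb1* (0.03 ± 0.27) and *Tnip1* (0.69 ± 0.29, and 0.86 with a call at a mitochondrial share under 10%) did not pass, and *Nfkbiz* in T-cells was at 0.78 ± 0.39 (adjusted p = 0.188), passing at 1.39 (adjusted p = 0.0121) without saline DMSO 1. In natural killer cells (NKs) 2 of 4 members were higher, against 9.39% of all genes, namely *Nfkbia* (1.55 ± 0.22) and *Nfkbiz* (1.89 ± 0.57). *Nfkbiz* passed the filter on low counts through its LPS libraries, so the share in NKs was partly set by the filter. It rested on 1 to 3 UMIs per saline library, and its call was lost without saline DMSO 2, saline inhibitors 2, LPS inhibitors 1 or LPS inhibitors 2, and by DESeq2. *Nfkb1* in NKs was at -0.42 ± 0.29, and *Tnfaip3* at 0.95 ± 0.33 (adjusted p = 0.0515), passing at 1.20 without saline DMSO 1, and at 0.95 and 0.96 with no *ex vivo* term and at a mitochondrial share under 10%.

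Endothelial cells, the lining of the vessels, were captured with the CD45+ cells at 123 to 343 per library, and they were the only type in which all 10 members were tested and all 10 were higher with LPS, against 20.3% of all genes. *Nfkbie* (2.69 to 6.37 CPM in saline) and *Rel* (5.31 to 9.46 CPM) passed the filter on low counts through their LPS libraries. The count of 10 was therefore partly set by the filter. *Tnip1* rose from 31.3, 29.1, 27.4 and 24.7 to 779, 552, 418 and 458 normalized CPM (4.26 ± 0.19, adjusted p = 2.02e-10). *Nfkbiz* rose from 10.4, 10.8, 11.2 and 12.04 to 218, 144, 159 and 142 (3.87 ± 0.21, adjusted p = 1.14e-09), and *Tnfaip3* from 24.3, 18.3, 22.5 and 19.4 to 452, 186, 210.2 and 255 (3.67 ± 0.27, adjusted p = 2.01e-08). For these genes the saline libraries lay close together whether dissociated with DMSO or with inhibitors. *Nfkbia* already stood at 884, 739.8, 784 and 647 in saline endothelial cells and went to 3149, 2777, 2116 and 3107 (1.87 ± 0.20, adjusted p = 2.10e-06). *Nfkbie*, lower with LPS in microglia, rose from 4.34, 6.47, 4.21 and 2.68 to 17.4, 14.5, 21.3 and 18.5 (2.04 ± 0.38, adjusted p = 0.000454). Among the subunit genes *Nfkb2* rose by 2.28 ± 0.22, *Relb* by 1.99 ± 0.25, *Rel* by 1.69 ± 0.35 and *Nfkb1* by 0.73 ± 0.17, a call that *Nfkb1* in endothelial cells lost with thinned cells (0.66, adjusted p = 0.0813). Endothelial markers summed to 22907 to 26200 CPM in saline and 16193 to 17032 CPM in LPS libraries, and microglial markers in the same cells to 3267 to 3811 and 1415 to 2307 CPM, and their part in these differences was not tested.

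The remaining types, none of them leukocytes, held few cells, and few members could be tested in them. In pericytes and smooth muscle 3 of 3 members were higher (*Nfkbia*, *Nfkbiz* and *Tnfaip3*), against 10.8% of all genes. In the choroid plexus it was 2 of 3 (*Nfkbia* and *Nfkbiz*) against 10.7%, in ependymal cells 3 of 6 (*Nfkbia*, *Nfkbiz* and *Tnfaip3*) against 6.31%, and in leptomeningeal cells 3 of 4 (*Nfkbia*, *Nfkbiz* and *Tnip1*) against 14.2%. Other than *Nfkbia*, these members passed the filter on low counts through their LPS libraries, so the shares were partly set by the filter. Saline libraries held 0 to 5 UMIs of *Tnfaip3* in pericytes, 0 to 7 of *Nfkbiz* in the choroid plexus and 1 to 3 of *Tnfaip3* in ependymal cells. In leptomeningeal cells they held 1 to 4 of *Nfkbiz* and 0 to 2 of *Tnip1*. LPS inhibitors 1 held 9 ependymal cells and was left out of that fit. *Nfkbia* had differences of 2.75 ± 0.26, 1.69 ± 0.26, 2.80 ± 0.26 and 2.67 ± 0.30 in the same order. *Nfkb1* did not pass in the choroid plexus (0.55 ± 0.42), ependymal cells (0.36 ± 0.42) or leptomeningeal cells (0.65 ± 0.46), nor did *Nfkb2* (1.19 ± 0.74) and *Relb* (2.28 ± 1.09) in ependymal cells. With free RNA subtracted *Nfkbia* in the choroid plexus was at 1.64 (adjusted p = 0.382) and not called, and neither was *Nfkbiz* there (adjusted p = 0.125). The subtraction gives no usable value for the choroid plexus, as told below. The call for *Tnfaip3* in pericytes was lost without LPS DMSO 1, that for *Nfkbiz* in the choroid plexus without LPS DMSO 1 or saline inhibitors 1, and that for *Nfkbiz* in ependymal cells without saline DMSO 2, without the cells with most UMIs (2.15) and with free RNA subtracted (2.43).

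**Figure D3:**
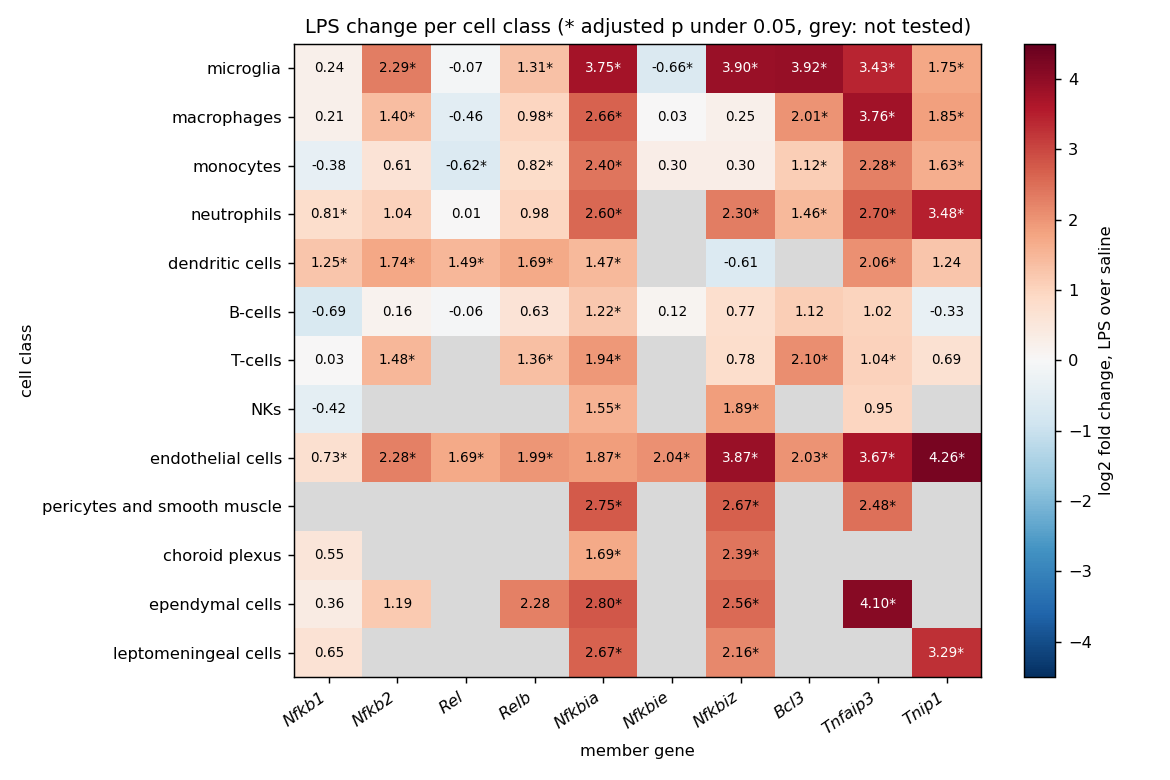
Map of the log2 difference between LPS and saline for the 10 members (columns) in the 13 cell types (rows), from edgeR with the *ex vivo* treatment as a term. Calls at an adjusted p under 0.05 are marked, and pairs that did not pass the filter on low counts are grey. *Nfkbia* is marked in every row, between 1.22 in B-cells and 3.75 in microglia. Endothelial cells are the row in which all 10 members are marked, although *Rel* and *Nfkbie* passed the filter there through their LPS libraries.

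Across the 13 types, 95 of the 130 pairs of member and type passed the filter on low counts, and of these 59 were called higher with LPS and 2 lower. Of all 99609 pairs of gene and type tested, 17.1% were called higher and 17.1% lower. A pair low in saline could pass the filter through its LPS libraries alone, so the share of members called higher was partly set by the filter. *Nfkbia* was called in 13 of 13 types (1.22 to 3.75), *Tnfaip3* in 9 of 11, *Bcl3* in 6 of 7, *Tnip1* in 6 of 9, *Relb* in 6 of 9 and *Nfkbiz* in 8 of 13. *Nfkb2* was called in 5 of 9, *Nfkb1* in 3 of 12, *Rel* higher in 2 and lower in 1 of 7, and *Nfkbie* higher in 1 and lower in 1 of 5. The share of all genes called higher ran from 4.12% in B-cells to 28.9% in microglia. When an estimate of free RNA was subtracted, 45 of the 90 pairs still testable were called higher, with no share of all pairs beside this count. The estimate rests on hemoglobin and *Ttr* counts and came out at 84.0 to 100% of the UMIs of endothelial cells in 7 of 8 libraries. In saline DMSO 2 it was 100% for the choroid plexus and 79.2% for pericytes and smooth muscle, so the subtraction gives no usable value for these 3 types.

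The order of the types by *Nfkbia* differed between saline and LPS mice. Over the 4 saline libraries the median CPM was 807 in endothelial cells, 417 in dendritic cells, 274 in B-cells, 206 in macrophages, 195 in neutrophils, 176 in microglia, 158 in monocytes and 36.9 in the choroid plexus. Of the types left out of this order, T-cells (230) lay between B-cells and macrophages, NKs (167) and leptomeningeal cells (162) between microglia and monocytes, and pericytes and smooth muscle (127) and ependymal cells (87.2) below monocytes. The place of dendritic cells rested on their DMSO libraries, at 1310 and 604 CPM, since their inhibitor libraries, at 230.2 and 229 CPM, lay below those of B-cells, at 274 and 275 CPM. Microglia too were higher with DMSO (432 and 201 CPM) than with inhibitors (150 and 133 CPM). With inhibitors, monocytes held 144 and 173 CPM, so the order of these types depended on the libraries pooled. Endothelial cells (651 to 963 CPM) did not overlap with microglia (133 to 432 CPM), whereas macrophages, neutrophils, microglia and monocytes overlapped with each other. Over the 4 LPS libraries the median was 2598 CPM in endothelial cells, 1551 in microglia, 1489 in dendritic cells, 1285 in macrophages, 1004 in neutrophils, 773 in monocytes, 574 in B-cells and 141 in the choroid plexus. There pericytes and smooth muscle (1136) lay between macrophages and neutrophils, leptomeningeal cells (867) and T-cells (830) between neutrophils and monocytes, ependymal cells (666, from 3 libraries) between monocytes and B-cells, and NKs (475) below B-cells. Microglia (1228 to 2108 CPM) then lay above all neutrophil (962 to 1077 CPM) and monocyte libraries (752 to 812 CPM), and still overlapped with macrophages and dendritic cells.

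Between DMSO and inhibitors few members passed the test. In the fit that also held saline or LPS as a term, 1 of 95 pairs was higher with DMSO than with inhibitors and none was lower by edgeR. Of all pairs of gene and type 0.213% were called higher with DMSO and 0.00703% lower. At an unadjusted p under 0.05 by edgeR there were 17 of the 95, with no share of all pairs beside them. The pair called was *Nfkbiz* in macrophages, where 0.53% of all genes were higher, at 392 and 239.7 normalized CPM in saline DMSO against 43.9 and 37.7 in saline inhibitors libraries, and at 287 and 163 against 90.9 and 92.7 in LPS libraries. DMSO libraries lay above inhibitor libraries on each side, and the difference was 2.14 ± 0.29 (adjusted p = 0.000518). The immediate-early genes had 16 of 18 called higher with DMSO in macrophages (median 3.15) and 16 of 18 in microglia (median 2.89). Without the cells highest in those genes the difference in *Nfkbiz* was 0.23 and did not pass (adjusted p = 0.9997 by edgeR), and without saline or LPS as a term it was 2.04 (adjusted p = 0.390). The cut was the 95th percentile of the macrophages of inhibitor libraries. It removed 51.25 to 73.4% of the macrophages of DMSO libraries and 3.56 to 9.57% of those of inhibitor libraries. Cells were thus removed by genes that themselves differed between DMSO and inhibitors, and this alternative cannot separate *Nfkbiz* from that difference.

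In microglia no member passed for DMSO by edgeR, against 0.361% of all genes called higher. At an unadjusted p under 0.05 by edgeR there were 3 of 10, and DESeq2 called 2, with no share of all genes beside these counts. *Nfkbiz* was 1.17 ± 0.24 higher (adjusted p = 0.0641, and 0.0246 with the capture batch as a block, with calls also by DESeq2, with no filter, without the cells with most UMIs, with thinned cells and without LPS DMSO 2), *Nfkbia* 0.82 ± 0.21 (adjusted p = 0.285, with calls by DESeq2 and with no filter) and *Tnfaip3* 0.59 ± 0.23 (adjusted p = 1.00). Each of their saline DMSO libraries held more than each saline inhibitors library. In macrophages *Nfkbia* was 0.90 ± 0.22 higher (adjusted p = 0.118), which passed with the block (0.86, adjusted p = 0.0223), by DESeq2 (0.90), with no filter (0.86) and without saline DMSO 2 (1.03), and *Tnfaip3* 1.14 ± 0.30 higher (adjusted p = 0.181). *Tnfaip3* in macrophages passed with no filter (1.10, adjusted p = 1.85e-07) and without LPS DMSO 2 (1.499, adjusted p = 0.000861). In dendritic cells *Nfkbia* passed with no filter (1.31), without the cells with most UMIs (1.42) with thinned cells (1.16), without LPS DMSO 2 (1.47) and without LPS inhibitors 2 (1.58). *Nfkbiz* passed there with no filter (1.90), without LPS DMSO 2 (2.22) and without LPS inhibitors 1 (2.75). In neutrophils *Bcl3* (-1.41) and *Tnip1* (-1.28) passed as lower with DMSO without cells high in immediate-early genes. The other pathway genes gave 2 of 28 target genes called in microglia, *Ccl2* (1.97) and *Ier3* (1.53), and 1 of 14 other subunits and inhibitors, *Nfkbid* (1.79), another nuclear IκB protein. In macrophages 10 of 26 target genes were called. No gene of the kinase list was called with DMSO in either type by edgeR.

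Among saline libraries alone, where no LPS response lay beneath, 4 of 95 pairs were higher with DMSO, against 0.204% of all pairs of gene and type. These were *Nfkbiz* in microglia (1.73 ± 0.28, adjusted p = 0.0168, 0.183% of all genes called), in macrophages (2.96 ± 0.30, adjusted p = 2.68e-05, 0.448%) and in dendritic cells (3.17 ± 0.67, adjusted p = 0.0212, 0.637%), and *Nfkbia* in dendritic cells (2.09 ± 0.42, adjusted p = 0.0118). In dendritic cells *Nfkbiz* stood at 565 and 133 normalized CPM with DMSO and at 38.6 and 43.6 with inhibitors. These values came from 68 and 8 UMIs with DMSO and 7 and 4 with inhibitors. The difference of *Nfkbiz* in dendritic cells thus rested mainly on saline DMSO 1, with 44 cells. *Nfkbia* stood there at 1779 and 729.9 with DMSO and at 292 and 305 with inhibitors. Among LPS libraries alone none of the 95 pairs passed by edgeR, against 0.132% of all pairs of gene and type called higher. At an unadjusted p under 0.05 by edgeR there were 8 of the 95, with no share of all pairs beside them. Each of these fits compares 2 libraries with 2 and borrows its spread from all 8.

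**Figure D4:**
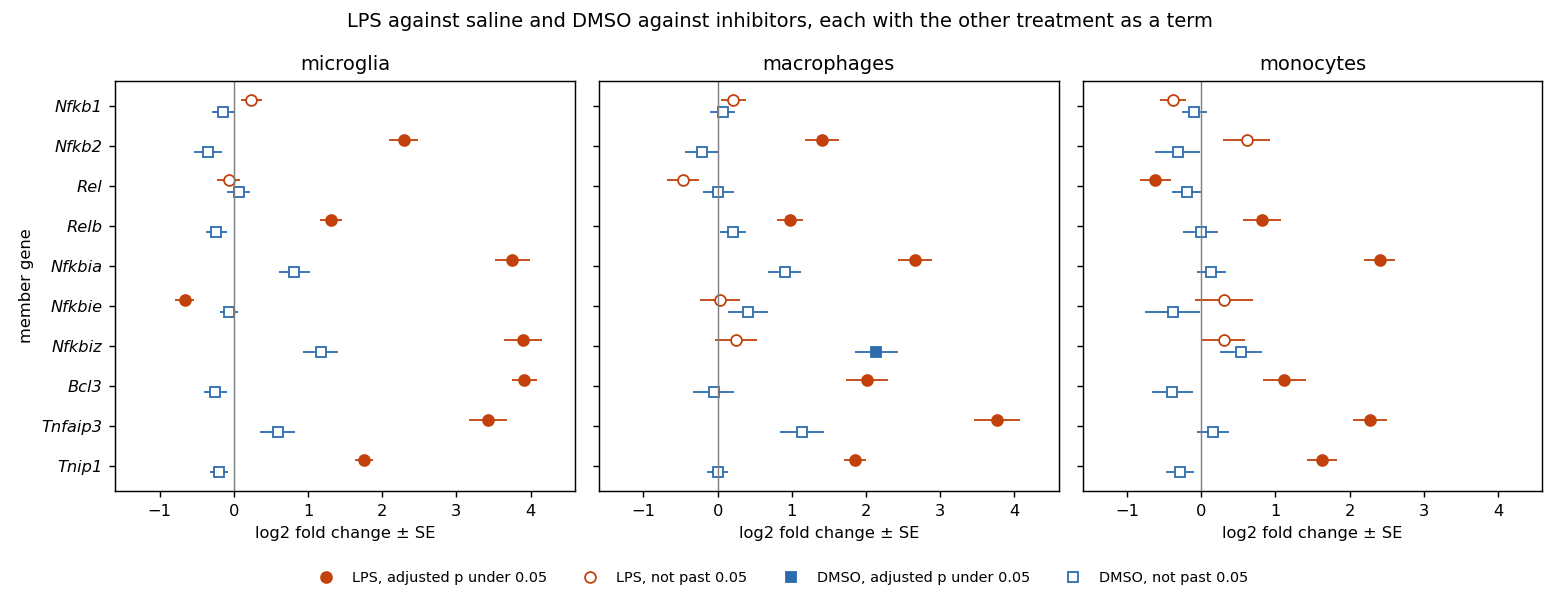
The log2 difference of LPS over saline (with the *ex vivo* treatment as a term) and of DMSO over inhibitors (with saline or LPS as a term) for the 10 members in microglia, macrophages and monocytes, with bars of 1 SE. In microglia the LPS differences of *Nfkbia*, *Nfkbiz* and *Tnfaip3* exceed their DMSO differences, and in macrophages *Nfkbiz* has 0.25 with LPS and 2.14 with DMSO.

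In the inhibitor libraries alone 45 of 95 pairs were called higher with LPS and 1 lower, and in the DMSO libraries alone 46 higher and 1 lower, beside 59 and 2 over all libraries. All pairs of gene and type gave 11.3% higher and 9.88% lower in the inhibitor libraries, and 11.1% higher and 9.17% lower in the DMSO libraries. In microglia the 2 sets of libraries called 7 members higher and 1 lower each, against 23.5% and 19.6% of all genes with inhibitors and 23.1% and 17.3% with DMSO. *Nfkbia* in microglia differed by 3.98 ± 0.35 with inhibitors and by 3.52 ± 0.35 with DMSO, *Bcl3* by 3.93 ± 0.25 and 3.90 ± 0.26, and *Tnfaip3* by 3.35 ± 0.37 and 3.51 ± 0.38. *Nfkbia* was called in 13 of 13 types with inhibitors and in 11 of 13 with DMSO.

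*Nfkbiz* was the member whose LPS difference moved most with the *ex vivo* treatment in microglia and macrophages. In microglia it was 4.45 ± 0.31 with inhibitors and 3.36 ± 0.29 with DMSO. In macrophages it was 1.17 ± 0.30 (adjusted p = 0.00739) with inhibitors, where saline libraries held 43.9 and 37.7 and LPS libraries 90.9 and 92.7 normalized CPM, and -0.49 ± 0.27 (adjusted p = 0.187) with DMSO. *Nfkbia* in dendritic cells was 2.32 ± 0.42 with inhibitors (adjusted p = 0.000489) and 0.73 ± 0.38 with DMSO (adjusted p = 0.177). *Bcl3* in monocytes went the other way, with 0.42 ± 0.26 (adjusted p = 0.316) with inhibitors and 2.02 ± 0.30 (adjusted p = 0.000701) with DMSO. Tested directly, the difference between the 2 LPS effects was -1.09 ± 0.38 for *Nfkbiz* in microglia and -1.65 ± 0.41 in macrophages, -1.58 ± 0.56 for *Nfkbia* in dendritic cells and 1.60 ± 0.40 for *Bcl3* in monocytes (DMSO minus inhibitors), and none of these passed. Among alternatives, *Nfkbiz* in macrophages passed with no filter on low counts (-1.63, adjusted p = 0.00492), and *Bcl3* in monocytes without cells high in immediate-early genes (2.33, adjusted p = 0.0461). *Tnfaip3* in B-cells passed without saline DMSO 2 (adjusted p = 0.00220), with 0 UMIs in LPS DMSO 2, so no size is given. By edgeR 0 of 95 pairs passed in either direction, with 15 at an unadjusted p under 0.05 and a lowest adjusted p of 0.327, and DESeq2 called 0. Of all pairs of gene and type 0.00602% were called higher and 0.01% lower by edgeR at an adjusted p under 0.05. No share of all pairs is given for unadjusted p or for DESeq2.

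**Figure D5:**
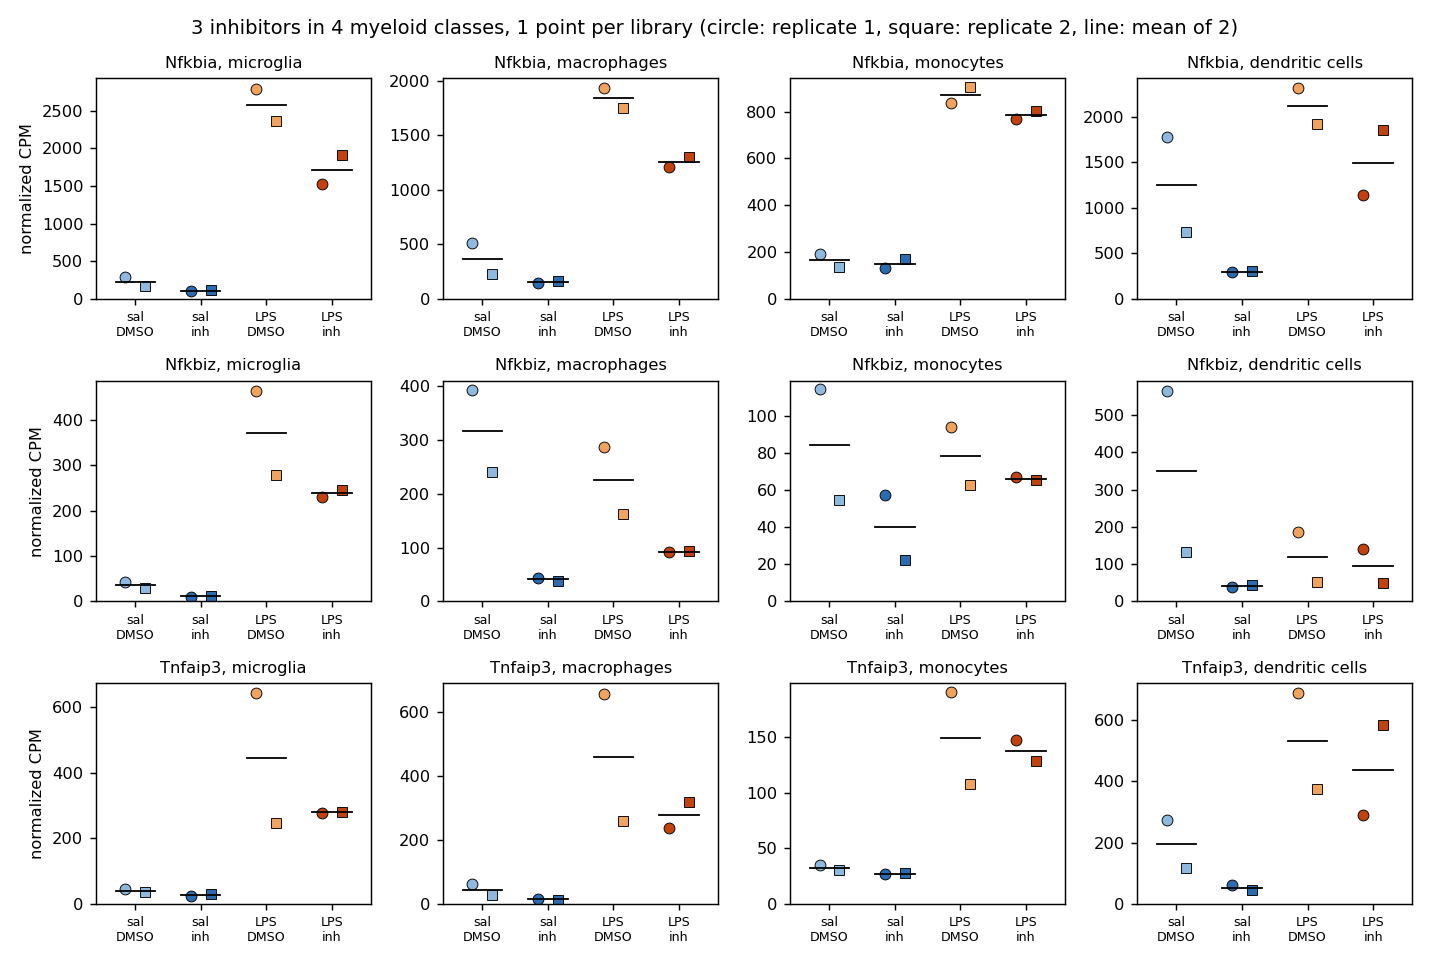
Normalized CPM of *Nfkbia*, *Nfkbiz* and *Tnfaip3* in 4 myeloid cell types, 1 point per library on a linear axis, for the 4 combinations of *in vivo* and *ex vivo* treatment. *Nfkbiz* in macrophages is at 239.7 to 392 in saline DMSO and 37.7 to 43.9 in saline inhibitors libraries, while *Nfkbia* in monocytes is at 129.6 to 193 in saline and 768 to 904 in LPS libraries.

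The LPS effect in microglia was set against that in 6 other immune types in fits with the mouse as a block, since both types came from the same mice. In these fits the sums of both types were scaled together by TMM, not within each type. A difference therefore need not equal a subtraction of the effects given above. Of 55 pairs tested 9 were higher and 23 lower in the other type than in microglia, against 16.5% and 22.1% of all pairs of gene and type. The LPS difference of *Nfkbia* and that of *Nfkbiz* were smaller than in microglia in 6 of 6 types. The other type minus microglia was -0.78 (macrophages) to -1.86 (B-cells) on the log2 scale for *Nfkbia* and -1.18 (neutrophils) to -3.38 (monocytes) for *Nfkbiz*. The difference of *Bcl3* was smaller in 4 of 5 types. *Tnip1* rose more in neutrophils (2.06 ± 0.32, adjusted p = 1.67e-05), and in B-cells, where it did not pass, its effect was lower than in microglia by a difference of -1.41. In dendritic cells the effects of the subunit genes *Rel* (2.49 ± 0.35), *Nfkb1* (1.89 ± 0.26) and *Relb* (1.31 ± 0.45) were called larger than in microglia, and that of *Nfkb2* was not. Scaled within each type, the effects in dendritic cells and microglia were 1.49 and -0.07 for *Rel* and 1.25 and 0.24 for *Nfkb1*. For *Relb* they were 1.69 and 1.31, so the sizes of these differences depended on the scaling. The dendritic cells also differed in kind between saline and LPS libraries, as given above. A change within cells and an exchange of kinds cannot be told apart in these differences. *Nfkbie* differed by 0.94 ± 0.26 in macrophages, 1.13 ± 0.37 in monocytes and 1.49 ± 0.55 in B-cells, types in which it did not itself pass. *Tnfaip3* rose more in macrophages (0.58 ± 0.18, adjusted p = 0.0106) and less in monocytes and T-cells, and its effect was lower in B-cells too (-1.67), where it did not pass with LPS.

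Of these differences from microglia, 13 lost their call in at least 1 alternative. *Tnfaip3* in monocytes moved from -0.96 to -0.45 with total-count scaling, -0.60 with thinned cells and -0.35 without cells high in immediate-early genes. *Tnfaip3* in B-cells was at -0.49 with thinned cells, -0.82 without cells high in immediate-early genes and -1.24 without LPS DMSO 1, and *Tnfaip3* in macrophages at 0.41 without LPS inhibitors 2. *Relb* in dendritic cells was at 0.58 with no filter on low counts and 0.51 without cells high in immediate-early genes, and was lost without any single library other than saline DMSO 2 or saline inhibitors 2 (0.82 to 1.30). *Nfkbie* in B-cells was at 0.91 with no filter and 1.47 with a stricter gate, and was lost without any single library other than saline DMSO 1 (1.07 to 1.56). *Nfkbie* in macrophages was at 0.60 both without cells high in immediate-early genes and without LPS DMSO 1. *Nfkbie* in monocytes was at 0.96 with thinned cells, and at 0.92 to 1.06 without LPS DMSO 1, LPS DMSO 2 or saline DMSO 2. *Nfkb2* in macrophages was at -0.43 with total-count scaling, -0.51 without the cells with most UMIs, -0.38 without saline inhibitors 1 and -0.496 without saline inhibitors 2, and *Nfkb2* in monocytes at -0.70 without saline inhibitors 1. *Nfkbia* in neutrophils was at -0.55 with total-count scaling, -0.77 with free RNA subtracted, -0.62 without saline DMSO 2 and -0.696 without saline inhibitors 2, and *Nfkb1* there at 0.74 without LPS DMSO 2. *Bcl3* in macrophages was at -1.11 with thinned cells. *Tnip1* in B-cells was at -1.24 with total-count scaling, and at -1.48 to -1.62 without LPS DMSO 1, LPS inhibitors 1 or LPS inhibitors 2. Differences that passed only in some alternatives were those of *Nfkb1* in macrophages, monocytes and T-cells, *Rel* in monocytes and B-cells, *Relb* and *Bcl3* in T-cells, *Tnip1* in macrophages and monocytes, and *Tnfaip3* in dendritic cells.

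Over 103 sums of library and type, the genes most like a member were described by Pearson's r of log2(CPM + 1) among 10433 genes with a mean of at least 10 CPM. The sums share libraries, depth and the split by LPS, so r is a description. *Nfkbiz* was most like *Dusp1* (0.77), *Socs3* (0.74) and *Junb* (0.73), and *Nfkbia* most like *Psma6* (0.78), *Rbm3* and *Dapk1*. *Bcl3* was most like *Slfn2* (0.81), *Zbp1* and *Tap1*, and *Tnip1* had *Slfn2* first too (0.71). *Tnfaip3* was most like *Srgn* (0.78), *Bcl2a1a* and *Bcl2a1d*, and *Relb* like *Pde4b* (0.70), *Bcl2a1d* and *Tnfaip3*. *Nfkb2* stood nearest to *Rbm25* (0.71), *Nfkb1* to *Etv3* (0.73), *Rel* to *Baz1a* (0.74) and *Nfkbie* to *Nfkb2* (0.66).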

How the data were processed

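The authors deposited UMI counts per gene and barcode for each library, which by their methods PIPseeker made with STAR on GRCm39. The counts were checked to be whole numbers, neither normalized nor restricted to cells. The members and lists were chosen with earlier results of these data known. Cells within the stated limits were assigned to the type with the highest marker score when they held at least 3 of its markers and no other type scored above that value divided by 3. The score was the log-likelihood excess of the marker UMIs over those that free RNA would give at a share of 0.3 of the cell. No doublet caller was run, and cells that met 2 types (1.28 to 3.31% per library) were left out. Raw UMIs were summed per library and type (at least 10 cells, at least 3 libraries a side), and genes with low counts were removed with filterByExpr. A gene could pass this filter through the libraries of a single combination of treatments. The sums were scaled by TMM within each type, or over both types together for the differences from microglia. Tests used glmQLFit and glmQLFTest (edgeR 4.0.16, R 4.3.3), the p-values were adjusted after Benjamini and Hochberg across all genes of a type, and the threshold was 0.05. Terms were the *in vivo* and the *ex vivo* treatment, or the 4 combinations for effects within 1 of them and for the interaction. On simulated data 99.0% of genes changed by a log2 fold of 2 and 64.6% of those changed by 1 were recovered in microglia. The simulation changed 99 genes at each size of 21623, up and down alike, around 1 mean profile. It thus held neither the many changed genes nor the shift in scaling of the real microglia. DESeq2 1.42.0, the capture batch as a block, total-count scaling, no filter, a stricter gate, thinned cells, other mitochondrial limits, free RNA subtraction and the removal of cells or of single libraries were alternatives. Cells high in immediate-early genes were those above the 95th percentile of the cells of their type in inhibitor libraries. The labels give the replicate number as the capture batch, and deviations of same-numbered microglia sums correlated at 0.0669 to 0.466 over 6 pairs. Separate mice were the replicates. Named were the 10 members in each type tested (in B-cells some only as a range), up to 3 genes per list and direction in microglia, and the 3 genes most like each member; *Rela* was named after its value had been seen. Promoter sequences came from RefSeq on GRCm38.p6, another build than that of the counts, so no count was tied to a coordinate.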

Additional observations from a re-analysis of the deposited data

Results flagged for a closer look

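The LPS effect of 32 of 55 pairs of member and immune cell type differed from that of the same member in microglia, by the test of the difference itself in edgeR with the mouse as a block. The 9 higher and 23 lower stand against 16.5% and 22.1% of all pairs of gene and type. Values are the log2 effect in the named type minus that in microglia, from sums of both types scaled together by TMM. They therefore need not equal a subtraction of the effects given above, which were scaled within each type. For B-cells the LPS libraries held few cells, 17 to 62 each. The dendritic cells differed in kind between saline and LPS libraries, so a change within cells and an exchange of kinds cannot be told apart. The sign of a difference does not give the sign of the effect in the named type, which is in the results above, where the alternatives that end a call are also given. These ended 13 of the 32 calls: *Tnfaip3* in monocytes, B-cells and macrophages, *Nfkbie* in B-cells, monocytes and macrophages, *Nfkb2* in monocytes and macrophages, *Nfkbia* and *Nfkb1* in neutrophils, *Bcl3* in macrophages, *Relb* in dendritic cells and *Tnip1* in B-cells.

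*Nfkbiz*, the nuclear IκB protein IκBζ, differed by -3.38 in monocytes, -3.37 in dendritic cells, -3.35 in macrophages, -2.37 in B-cells, -2.33 in T-cells and -1.18 in neutrophils. Its saline levels with DMSO lay above those with inhibitors in microglia, macrophages, neutrophils and dendritic cells, and the part of this in the differences was not tested. *Nfkbia* (IκBα) differed by -1.86 in B-cells, -1.34 in dendritic cells, -1.18 in monocytes, -1.15 in T-cells, -0.85 in neutrophils and -0.78 in macrophages. *Bcl3* differed by -2.62 in monocytes, -2.09 in neutrophils, -2.04 in B-cells and -1.66 in macrophages, beside the low saline level in microglia given above. *Tnfaip3* differed by -1.68 in T-cells, -1.67 in B-cells, -0.96 in monocytes and 0.58 in macrophages. *Nfkb2* differed by -1.50 in B-cells, -1.50 in monocytes and -0.64 in macrophages.

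Larger effects than in microglia were called for subunit genes in dendritic cells, with 2.49 for *Rel*, 1.89 for *Nfkb1* and 1.31 for *Relb*, and with 0.92 for *Nfkb1* in neutrophils. *Nfkb2* was tested in dendritic cells and not called. Saline libraries of dendritic cells held 7 to 17 UMIs of *Rel* and 3 to 16 of *Relb*. The share of pairs called higher, 9 of 55, lay near the 16.5% of all pairs of gene and type. *Tnip1* differed by 2.06 in neutrophils and by -1.41 in B-cells. *Nfkbie* differed by 1.49 in B-cells, 1.13 in monocytes and 0.94 in macrophages, with microglia as the type in which it fell. Free RNA of the LPS libraries held more *Nfkbiz* (165 to 350 CPM) than that of saline libraries (16.5 to 94.9 CPM). After its estimated part was subtracted 9 differences were higher and 22 lower, with no share of all pairs beside these counts.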

How the results depend on the processing

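The 340 results of a member in a type were recomputed under up to 19 alternatives, since not every alternative gives a value for every result (202 with thinned cells and 285 with DESeq2). They are the tests of LPS, of DMSO, of the interaction and of the differences from microglia. Effects within 1 set of libraries, such as saline libraries alone or inhibitor libraries alone, are not among them. Of 94 called results 63 were called in every alternative that gave a value, 31 lost the call in at least 1, and 34 that were not called passed in at least 1. In ependymal cells no LPS library could be left out, since a fit needed at least 3 libraries a side. Calls there were not tried in that way, among them *Tnfaip3*, with 15, 1 and 5 UMIs in LPS DMSO 1, LPS DMSO 2 and LPS inhibitors 2. The cause of a lost or gained call was not tested. *Nfkbia* in the choroid plexus and *Nfkb2* and *Relb* in endothelial cells lost the call with LPS only with free RNA subtracted. That subtraction gives no usable value for these types, and the 31 include these losses. Removing cells high in immediate-early genes took 40.9 to 77.7% of the microglia of DMSO libraries and 3.62 to 8.84% of those of inhibitor libraries. Of monocytes it took 44.0 to 82.1% and 2.22 to 16.4%, so this alternative compared differently selected cells. The sign of 1 result turned past the threshold, that of *Nfkb1* in microglia with LPS, at -0.59 under total-count scaling, an alternative chosen after the data had been seen. The counts below are given without the share of all genes under the same alternative, which can move as well. With total-count scaling the genes called lower with LPS in microglia went from 6478 to 15068. These counts therefore describe the calls and are not a result about the members. The 59 pairs higher with LPS were 39 with cells thinned to 800 UMIs, of 56 pairs still testable, and 50 to 63 without single libraries. The 2 pairs lower were 1 with no filter on low counts, 5 with total-count scaling, 4 without the 8% of cells with most UMIs, 1 without cells high in immediate-early genes, and 1 to 3 without single libraries. In microglia 7 members were higher under every alternative other than the loss of LPS DMSO 2, which gave 8, and 1 was lower, or 3 with total-count scaling. For DMSO the 1 pair higher became 4 with DESeq2, 7 with no filter, 3 with the replicate block, 0 with no *in vivo* term, 3 without the cells with most UMIs, 3 with thinned cells and 0 without cells high in immediate-early genes, where 2 pairs were lower. Without single libraries it was 1 to 5, with 5 without LPS DMSO 2 and 2 without LPS inhibitors 1, LPS inhibitors 2 or saline DMSO 2. The count of 0 members higher with DMSO in microglia became 2 with DESeq2, 2 with no filter, 1 with the block, 1 without the cells with most UMIs, 1 with thinned cells, and 0 to 1 without single libraries, with LPS DMSO 2 giving the 1. For the interaction, 1 pair was higher without cells high in immediate-early genes and 1 lower with no filter, and without single libraries 0 were higher and 0 to 1 lower, the 1 without saline DMSO 2. Of the differences from microglia, 9 higher and 23 lower of 55 pairs became 5 and 15 of 34 pairs still testable with thinned cells, 13 and 19 of 55 with total-count scaling, 6 and 19 of 44 with the stricter gate, 10 and 18 of 50 without cells high in immediate-early genes, and 6 to 10 and 20 to 25 without single libraries. The block also made *Tnip1* in macrophages differ from microglia (0.38, adjusted p = 0.0488, with 0.42 to 0.58 in the 7 other alternatives that called it), and apart from the calls given with the block above it changed no other call. Few cells limit the rarer types: 35 pairs of member and type had too few UMIs to be tested, and in dendritic cells simulated log2 changes of 1 were recovered in 31.2% of genes.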
